A study of Homo sapiens with 12 samples.

Results

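H460 cells given cytarabine were compared with H460 cells given cytochalasin D on 4 of the 12 two-channel arrays of a drug comparison. H460 is an established human lung cancer cell line. The arrays were chosen by title: 2 name a cytarabine treatment, which the labels spell cytarabin, and 2 name a cytochalasin D treatment. Both drugs were used at 0.2 micromolar, each for 24 hours. On all 4 arrays the treated RNA was in channel 1 and RNA of untreated H460 cells in channel 2, so a bias between the channels is the same for both drugs and falls out of their difference. The rest of the series, also set against untreated cells after 24 hours, was cisplatin at 5 micromolar (2 arrays), paclitaxel at 5 nanomolar (2 arrays) and 5-fluorouracil at 1 micromolar (4 arrays, 2 in each channel orientation). The labels do not say whether the 2 arrays of a drug came from separate cultures, so the tests measure the spread between arrays, which may be technical.

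The drugs act on different structures of the cell. Cytarabine is an analogue of deoxycytidine that enters cells through nucleoside transporters, is phosphorylated and is built into DNA, where it stalls replication. Cytochalasin D, a fungal compound, caps the growing end of actin filaments and takes the filament network apart. Free actin is itself a signal in the nucleus: actin monomers bind the coactivators of serum response factor (SRF), and cytochalasin D is known to free these coactivators, while loss of tensed filaments is known to keep the coactivator YAP, a partner of the TEAD factors, out of the nucleus. SRF targets include the actins, and the matricellular genes CCN1 and CCN2 are known targets of both SRF and YAP.

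Each value below is a deposited log ratio minus the median of its array, read as log2, and a difference is cytarabine minus cytochalasin D on that scale. Neither the base of the logarithm nor the numerator of the ratio is stated in the sources used here. Treated over untreated is the likely direction. Its basis is that MDM2, a p53 target, read 2.74 and 2.57 on the cisplatin arrays and 1.15 and 1.35 on the 5-fluorouracil arrays with treated RNA in channel 1, but -1.80 and -1.63 with the channels exchanged. If the direction were the opposite, every "higher" and "lower" below would turn. The cytarabine arrays held 7299 and 6989 values and the cytochalasin D arrays 7488 and 7513. Ratios spread wider on the cytarabine arrays, with a scaled median absolute deviation of 0.254 and 0.267, than on the cytochalasin D arrays, at 0.203 and 0.185. Arrays of the same drug correlated at 0.825 (cytarabine) and 0.805 (cytochalasin D) across 6604 features, and arrays of different drugs at 0.658 to 0.692. Features are genes or probes without a gene name. They are not independent replicates.

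Of the 6604 features with a value on all 4 arrays, 258 (3.91%) differed between the drugs at an adjusted p under 0.05, 103 (1.56%) higher and 155 (2.35%) lower with cytarabine. The test was limma on the 8 arrays of cytarabine, cisplatin, paclitaxel and cytochalasin D, which share 1 estimate of the spread. With the arrays scaled to the same spread the count was 46, of which 52.2% were higher with cytarabine, against 39.9% as reported. A gene symbol was available for 184 of the 258 features, 79 of them higher and 105 lower. The median size of a called difference was 0.59, the smallest was 0.35, and 25 reached 1. In all 258 features both cytarabine arrays lay on 1 side of both cytochalasin D arrays, which was true of 57.8% of all features tested. An exact permutation test on 2 arrays against 2 cannot give a two-sided p below 0.333.

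Most of the features higher with cytarabine were above untreated cells after cytarabine and below them after cytochalasin D. Of the 103, both cytarabine arrays were above 0 in 96 and both cytochalasin D arrays were below 0 in 69. Of the 155 lower features, both cytarabine arrays were below 0 in 147, while both cytochalasin D arrays were above 0 in 76, and 66 were below 0 on all 4 arrays. The called differences therefore held changes of opposite sign and also losses of unequal size.

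**Figure D1:**
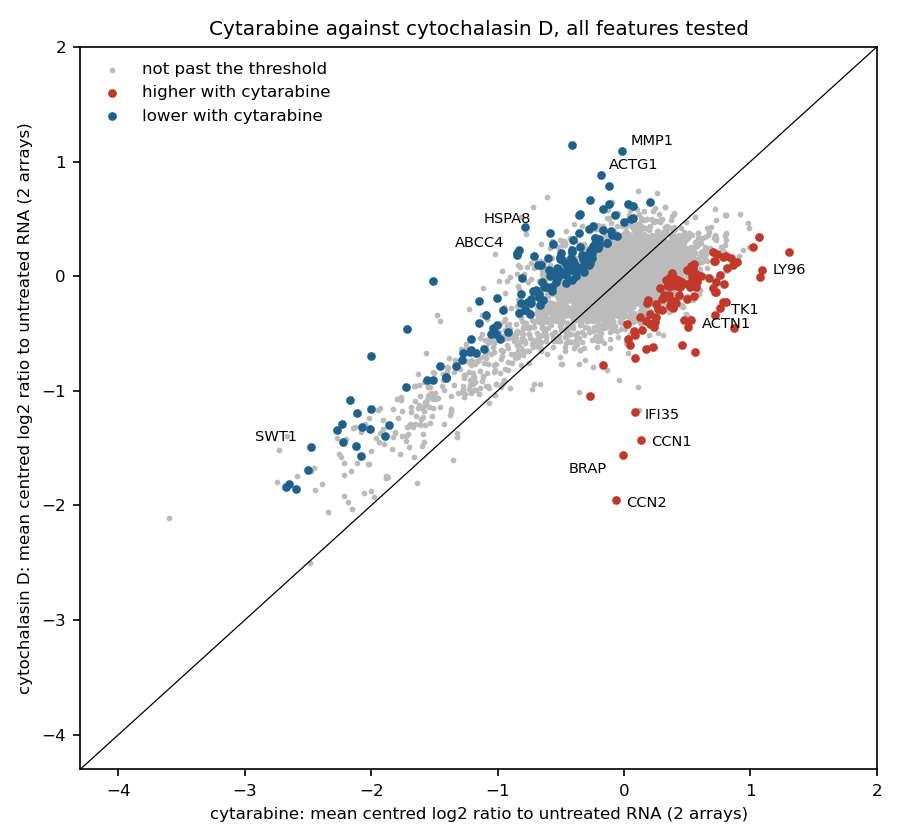
Each point is 1 of the 6604 features, with its mean centred log2 ratio to untreated RNA over the 2 cytarabine arrays on the horizontal axis and over the 2 cytochalasin D arrays on the vertical axis. Coloured points had an adjusted p under 0.05 (103 higher and 155 lower with cytarabine), the line marks equal ratios, and CCN2, BRAP, CCN1 and IFI35 lie near 0 for cytarabine and below -1 for cytochalasin D.

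The largest difference of the comparison was in CCN2, the connective tissue growth factor, a secreted matricellular protein that cells make when their actin filaments are under tension. CCN2 read -0.02 and -0.11 on the cytarabine arrays, against -1.95 and -1.96 on the cytochalasin D arrays. It was near the level of untreated cells with cytarabine and far below it with cytochalasin D, and the 2 arrays of each drug lay close together. The difference was 1.89 (SE 0.09, 3.71-fold, adjusted p = 0.00034). CCN1, a matricellular protein of the same family, read 0.10 and 0.16 with cytarabine, against -1.39 and -1.46 with cytochalasin D. Its difference was 1.56 (SE 0.08, 2.95-fold, adjusted p = 0.00034). Both genes kept their calls when any 1 of the 8 arrays was left out, with differences of 1.85 to 1.94 for CCN2 and 1.52 to 1.60 for CCN1. They were the 2 features called when only the 4 arrays of the comparison were fitted, and CCN1 missed the threshold when the 2 arrays of 5-fluorouracil in channel 1 were added to the fit (adjusted p = 0.080).

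The region before the start of CCN2 is shown because CCN2, the gene with the largest difference, is known to be read by TEAD factors. It lies on the minus strand at chr6:131951373-131951622 of GRCh38.p14 (RefSeq promoter table) and covers the 250 bases before the transcription start, 5′ to 3′. Capitals mark the TEAD element GGAATG, which was searched on both strands (as GGAATG and CATTCC) and was found at 169 to 164, 104 to 99 and 95 to 90 bases before the start, with no overlap.
CCN2: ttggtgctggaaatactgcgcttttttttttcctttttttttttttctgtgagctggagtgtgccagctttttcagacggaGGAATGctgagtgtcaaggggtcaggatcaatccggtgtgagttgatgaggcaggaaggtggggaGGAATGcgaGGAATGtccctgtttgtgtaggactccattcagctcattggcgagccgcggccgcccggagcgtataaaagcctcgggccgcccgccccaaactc
The element is common. At least 1 copy lay in 11.9% of 35116 promoters of the same length, in 530 of 3779 promoters of tested genes (14%), in 12 of the 63 promoters of genes called higher with cytarabine (19%) and in 17 of the 88 of genes called lower (19.3%). A match describes the letters and is not a binding measurement. No promoter sequence was available for CCN1, so it was not searched.

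The actin genes went the other way. ACTG1, cytoplasmic gamma-actin, read -0.13 and -0.24 with cytarabine, against 0.94 and 0.82 with cytochalasin D. It was slightly below untreated cells after cytarabine and well above them after cytochalasin D. The difference was -1.06 (SE 0.08, 2.09-fold lower with cytarabine, adjusted p = 0.0042). ACTG2, enteric smooth muscle gamma-actin, read -0.22 and -0.11 with cytarabine, against 0.43 and 0.74 with cytochalasin D, a difference of -0.75 (SE 0.14, adjusted p = 0.037). The actin isoforms are close in sequence, and the files do not say whether the probes tell them apart. ACTB, cytoplasmic beta-actin, read -0.27 and -0.24 with cytarabine, against 0.16 and 0.31 with cytochalasin D. Its difference was -0.49 (SE 0.09, 1.41-fold lower, adjusted p = 0.035). MYL6, the non-muscle myosin light chain that works on these filaments, read -0.04 and -0.08 against 0.32 and 0.38 in the same order of drugs, a difference of -0.41 (SE 0.09, adjusted p = 0.050). All 3 actins and MYL6 were above untreated cells on both cytochalasin D arrays and below them on both cytarabine arrays.

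Upstream of the ACTG1 and ACTG2 starts the search was for the CArG box, the site that SRF binds (CC and GG around a run of A and T), which is shown in capitals. ACTG1 is on the minus strand at chr17:81512800-81513049 and ACTG2 on the plus strand at chr2:73892758-73893007 of GRCh38.p14 (RefSeq promoter table), 250 bases before the start each, 5′ to 3′.
ACTG1: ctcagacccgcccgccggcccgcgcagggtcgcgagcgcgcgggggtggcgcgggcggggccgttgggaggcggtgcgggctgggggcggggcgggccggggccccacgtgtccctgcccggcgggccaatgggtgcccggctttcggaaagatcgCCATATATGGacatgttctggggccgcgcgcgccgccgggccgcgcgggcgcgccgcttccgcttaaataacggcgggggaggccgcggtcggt
ACTG2: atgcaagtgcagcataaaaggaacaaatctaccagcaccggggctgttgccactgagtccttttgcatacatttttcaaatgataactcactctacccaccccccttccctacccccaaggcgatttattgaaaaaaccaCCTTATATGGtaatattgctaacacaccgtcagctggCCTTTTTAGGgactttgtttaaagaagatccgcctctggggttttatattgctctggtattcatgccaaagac
ACTG1 had 1 box at 94 to 85 bases before the start, and ACTG2 had 2, at 110 to 101 and at 73 to 64, with no overlap. A CArG box was found in 1.16% of all 35116 promoters, in 73 of 3779 promoters of tested genes (1.93%), in 5 of the 88 of genes called lower with cytarabine (5.68%) and in 2 of the 63 of genes called higher (3.17%). The 5 were ACTG1, ACTG2, PDYN, LDB3 and C16orf78, and the 2 were ACTN1 and ASB2, so the motif stood before genes that differed in either direction. Promoter sequences were available for 88 of the 105 named genes called lower and 63 of the 79 called higher. There was none for ACTB or CCN1, so neither was searched.

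ACTN1, the alpha-actinin that cross-links filaments at adhesions, was higher with cytarabine. It read 0.42 and 0.65 with cytarabine, against -0.37 and -0.39 with cytochalasin D, a difference of 0.91 (SE 0.10, 1.88-fold, adjusted p = 0.013). The actin isoforms and this filament partner thus differed in opposite directions between the same 2 drugs. Among the 26 tested genes of actin isoforms and actin-binding proteins, 1 was higher (ACTN1) and 4 were lower with cytarabine (ACTG1, ACTG2, ACTB and MYL6), with a median of -0.09, against -0.004 over all features. Over all features, 1.56% were called higher and 2.35% lower. CNN1, a calponin of smooth muscle filaments, was not called at 0.68 (SE 0.28, adjusted p = 0.19), and its arrays overlapped in range. Of 13 tested SRF targets, 2 were higher (CCN1 and CCN2) and 2 lower (ACTG1 and ACTB), with a median of 0.17. ZYX, zyxin of focal adhesions, was at 0.53 (SE 0.16, adjusted p = 0.095). SRF itself showed no call, at -0.02 (SE 0.17, adjusted p = 0.94). VCL, vinculin, was not analysed here.

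These calls rested on few arrays. The call of ACTG1 ended when cytarabine array 2 was left out (-1.01), and that of ACTN1 without cytarabine array 2 (0.79) or either cytochalasin D array (0.92 and 0.90). ACTG2, ACTB and MYL6 lost their calls without any 1 of the 8 arrays, with differences of -0.90 to -0.60, -0.56 to -0.42 and -0.44 to -0.38.

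**Figure D2:**
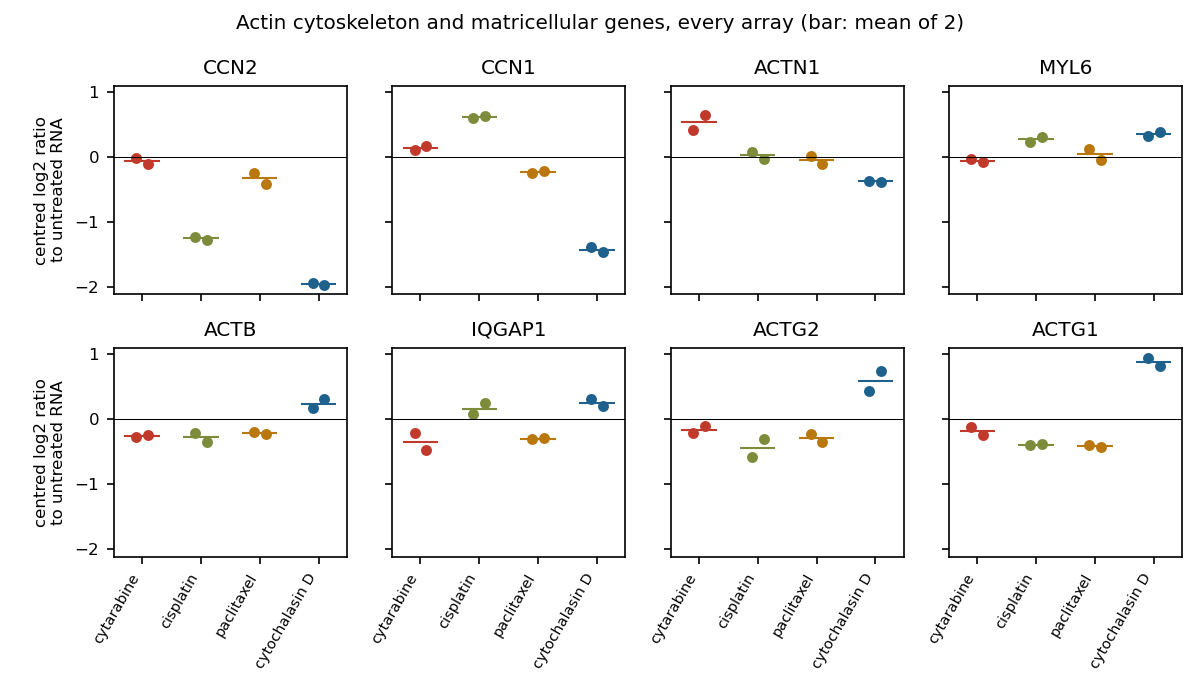
Centred log2 ratio to untreated RNA (vertical axis) of 8 genes on each array, with the 2 arrays of cytarabine at the left of each panel, then cisplatin, paclitaxel and cytochalasin D, and a bar at each mean. The 3 actins are above 0 only on the cytochalasin D arrays, where ACTG1 read 0.94 and 0.82, and CCN1 and CCN2 are lowest there.

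The other drugs of the same orientation give another yardstick for these genes. Against the mean of cisplatin and paclitaxel, cytarabine was at -0.05 for CCN1, 0.22 for ACTG1, 0.20 for ACTG2 and -0.01 for ACTB, and none of these passed the threshold (adjusted p = 0.59, 0.079, 0.27 and 0.95). Cytochalasin D differed from the same mean in CCN1 by -1.61 (SE 0.07, adjusted p = 0.00019), in ACTG1 by 1.29 (SE 0.07, adjusted p = 0.00095), in ACTG2 by 0.95 (adjusted p = 0.012) and in ACTB by 0.48 (adjusted p = 0.021). For CCN2 the 2 drugs in that mean were unlike. Cisplatin also read low, at -1.23 and -1.28, while the paclitaxel arrays were at -0.25 and -0.42. In limma CCN2 differed from that mean by 0.73 with cytarabine (SE 0.08, adjusted p = 0.0050) and by -1.16 with cytochalasin D (SE 0.08, adjusted p = 0.0012). For ACTN1 it was cytarabine that passed the threshold against the mean (0.55, adjusted p = 0.012), while cytochalasin D did not (-0.36, adjusted p = 0.077). Over all features, 14.6% (961) were called for cytarabine and 3.3% (218) for cytochalasin D against that mean. The order of these counts turned with the arrays scaled to the same spread (285 for cytarabine and 330 for cytochalasin D) and after quantile normalization (218 and 280). The cytarabine and cytochalasin D arrays enter these contrasts again, so the values are given side by side and are not separate evidence.

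Among genes of cell adhesion, IQGAP1, ITGB1 and ITGB3 were lower and PTK2 was higher with cytarabine. IQGAP1, a scaffold at the cell cortex that binds actin, read -0.22 and -0.47 with cytarabine, against 0.31 and 0.20 with cytochalasin D, a difference of -0.60 (SE 0.11, adjusted p = 0.039). The next 3 genes were chosen after their values were seen. ITGB1, the beta subunit of most matrix-binding integrins, read -0.31 and -0.48 with cytarabine, against 0.10 and 0.13 with cytochalasin D, a difference of -0.51 (adjusted p = 0.045). PTK2, focal adhesion kinase, read 0.24 and 0.27 against -0.12 and -0.36, a difference of 0.49 (adjusted p = 0.049). ITGB3, the integrin beta subunit of vitronectin receptors, was far below untreated cells with both drugs, at -2.06 and -2.10 against -1.64 and -1.49. Its difference of -0.51 (adjusted p = 0.039) became 0.02 with the arrays scaled to the same spread. The calls of ITGB1 and PTK2 ended without any 1 of the 8 arrays (-0.60 to -0.42 and 0.37 to 0.62). That of IQGAP1 ended without any array but cytarabine 1 (-0.65 to -0.47). ITGB3 kept its call only without a paclitaxel array (-0.59 to -0.43 otherwise).

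More cytoskeletal genes passed the threshold outside the lists, and those named here were chosen after their values were seen. TTL, which puts tyrosine back on alpha-tubulin, read 0.67 and 0.77 with cytarabine, against -0.12 and -0.16 with cytochalasin D, a difference of 0.86 (SE 0.11, adjusted p = 0.018). CDC42EP1, an effector of CDC42 in cell shape, read 0.64 and 0.77 against -0.21 and 0.02, a difference of 0.80 (SE 0.10, adjusted p = 0.016). SPTAN1, the non-erythroid alpha-spectrin under the cell membrane, differed by 0.61 (SE 0.09, adjusted p = 0.024) and MACF1, which joins microtubules to actin, by 0.53 (SE 0.10, adjusted p = 0.040). These 4 were above untreated cells on both cytarabine arrays. SRC, the tyrosine kinase of adhesions, went the other way at -0.18 and -0.15 with cytarabine, against 0.37 and 0.43 with cytochalasin D, a difference of -0.57 (SE 0.09, adjusted p = 0.028). EPS8, which caps actin filaments, was below untreated cells throughout, at -0.91 and -1.12 against -0.49 and -0.50 (difference -0.52, SE 0.09, adjusted p = 0.037), and its difference was -0.28 and not called with the arrays scaled. The calls of all 6 ended without cytarabine array 2 (0.81, 0.74, 0.53, 0.48, -0.59 and -0.41 in the order named), without cytochalasin D array 1 (0.88, 0.69, 0.62, 0.60, -0.60 and -0.51) and without cytochalasin D array 2 (0.84, 0.92, 0.59, 0.46, -0.54 and -0.52). MACF1 lost it without any array, EPS8 without any but cytarabine 1, and SRC also without cytarabine array 1 (-0.55).

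Genes of nucleotide supply, the pathway that cytarabine enters, held 1 call. TK1, the thymidine kinase that salvages thymidine in S phase, read 0.79 and 0.73 with cytarabine, against -0.45 and -0.11 with cytochalasin D. It was above untreated cells after cytarabine and below them after cytochalasin D, and the difference was 1.04 (SE 0.13, 2.06-fold, adjusted p = 0.018). Without cytarabine array 2 (1.07) or either cytochalasin D array (0.88 and 1.21) the call was lost. Against the mean of cisplatin and paclitaxel, TK1 was at 0.28 with cytarabine (adjusted p = 0.13) and was lower with cytochalasin D (-0.76, adjusted p = 0.019). TK1 was the 1 gene called of 21 tested in nucleotide synthesis, salvage and cytarabine handling, whose median was 0.04. That share is near the 3.91% called over all features. SLC29A1, the nucleoside transporter that carries cytarabine into cells, read -0.49 and -0.62 with cytarabine, against -0.24 and -0.31 with cytochalasin D, and was not called (-0.28, SE 0.10, adjusted p = 0.14). TYMS, thymidylate synthase, was not called either (0.30, SE 0.11, adjusted p = 0.15). DCK, RRM1 and RRM2 were not analysed here. ABCC4, a membrane pump known to export nucleotides and nucleoside analogues, read -0.81 and -0.89 with cytarabine, against 0.15 and 0.22 with cytochalasin D. Its difference was -1.03 (SE 0.08, 2.04-fold lower, adjusted p = 0.0042), with the call lost without cytarabine array 2 (-0.99) or cytochalasin D array 2 (-1.0).

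No gene of DNA replication was called among 25 tested by limma, and the median was 0.17. An unadjusted p under 0.05 was found for 9 of the 25, against 1640 of all 6604 features (24.8%). FEN1, the flap endonuclease of lagging strand synthesis, read 0.44 and 0.55 with cytarabine, against 0.00 and -0.11 with cytochalasin D (0.55, SE 0.13, adjusted p = 0.065), and passed the threshold without either cisplatin array (0.55, adjusted p = 0.048). RFC2, a subunit of the clamp loader, was at 0.43 (SE 0.11, adjusted p = 0.074). None of 24 genes of damage signalling and repair was called, 6 having an unadjusted p under 0.05, a share near the 24.8% of all features, with a median of -0.01 that was 0.07 with the arrays scaled. ATM, the kinase that signals DNA breaks, read -1.54 and -1.69 against -1.28 and -1.31 and differed by -0.32 (SE 0.12, adjusted p = 0.15). That difference was 0.11 with the arrays scaled. XRCC6, the Ku70 subunit that binds DNA ends, read 0.46 and 0.33 against -0.25 and -0.24 (0.64, SE 0.16, adjusted p = 0.075) and passed the threshold without either paclitaxel array (0.64, adjusted p = 0.040). Outside the lists, and chosen after their values were seen, were 3 genes that work at replication forks or in repair. EXO1, an exonuclease of mismatch repair, read -0.25 and -0.29 with cytarabine, against -0.98 and -1.11 with cytochalasin D, a difference of 0.77 (SE 0.09, adjusted p = 0.013). SSRP1, a subunit of the histone chaperone FACT, was at 0.56 (SE 0.08, adjusted p = 0.021) and TIMELESS, of the fork protection complex, at 0.43 (SE 0.09, adjusted p = 0.050). The calls of EXO1 and SSRP1 ended without cytarabine array 2 (0.79 and 0.54) or either cytochalasin D array (0.84 and 0.71, and 0.54 and 0.59), and that of TIMELESS without any array (0.36 to 0.51). EXO1 was below untreated cells with both drugs, so its higher value with cytarabine was a smaller loss.

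Cell cycle and chromatin genes gave single calls. FOXM1, the transcription factor of G2 and mitotic genes, read 0.80 and 0.77 with cytarabine, against 0.32 and 0.02 with cytochalasin D, a difference of 0.61 (SE 0.12, adjusted p = 0.042). E2F4, the E2F protein of repressor complexes, read 0.06 and 0.41 against -0.38 and -0.51, a difference of 0.68 (SE 0.12, adjusted p = 0.038). H2AX, the histone variant phosphorylated at DNA breaks, read 0.39 and 0.45 against -0.14 and -0.03, a difference of 0.51 (SE 0.09, adjusted p = 0.038). FOXM1 was above untreated cells on all 4 arrays, whereas E2F4 and H2AX were above them on the cytarabine arrays and below them on the cytochalasin D arrays. They were the only calls among 21 genes of G2 and mitosis (median 0.07), 17 of G1 and S phase entry (0.02) and 7 histones and chromatin proteins (0.12). Of all features, 3.91% were called. CCNE1, cyclin E, read -1.25 and -1.17 against -0.77 and -0.70 and was not called (-0.48, adjusted p = 0.091). Its difference was -0.19 with the arrays scaled, and it passed the threshold without either paclitaxel array (-0.48, adjusted p = 0.049). VRK1, a kinase of nuclear envelope and chromatin, was called at 0.45 (SE 0.08, adjusted p = 0.032) and was chosen after its value was seen. The calls of FOXM1, H2AX and VRK1 ended without any 1 of the 8 arrays (0.46 to 0.77, 0.45 to 0.56 and 0.43 to 0.46), and that of E2F4 without any but cytarabine 1 (0.51 to 0.74). CHEK1 was not analysed here.

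NCAPD3, a subunit of the condensin that shapes mitotic chromosomes, was among the 12 largest differences. NCAPD3 read 0.81 and 0.93 with cytarabine, against -0.71 and -0.20 with cytochalasin D, a difference of 1.32 (SE 0.20, 2.50-fold, adjusted p = 0.024). The cytochalasin D arrays lay further apart than the cytarabine arrays. The call ended without either cytochalasin D array (1.07 and 1.57), either cisplatin array (1.32 each) or cytarabine array 2 (1.26).

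Among 16 tested p53 targets 1 was called, against 3.91% of all features, and the median was -0.06. BBC3, the proapoptotic protein PUMA, read -0.35 and -0.27 with cytarabine, against 0.17 and 0.09 with cytochalasin D, a difference of -0.44 (SE 0.08, adjusted p = 0.040) that lost its call without any 1 of the 8 arrays (-0.48 to -0.39). MDM2 read -0.39 and -0.04 with cytarabine, against -0.22 and -0.05 with cytochalasin D, a difference of -0.08 (SE 0.13, adjusted p = 0.76). CDKN1A, the cell cycle inhibitor p21, read 0.19 and 0.21 against 0.12 and 0.14, a difference of 0.07. Its SE of 0.29 was set in part by the cisplatin arrays, which differed from each other at 3.12 and 4.20. PMAIP1, the proapoptotic protein NOXA, read -0.29 and -0.20 with cytarabine, against -0.72 and -0.87 with cytochalasin D, and was not called (0.55, SE 0.13, adjusted p = 0.071). None of 17 apoptosis regulators was called, 1 having an unadjusted p under 0.05, against 24.8% of all features, with a median of 0.12.

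Ribosomal protein genes had negative differences throughout. All 13 tested were below 0, from -0.60 to -0.03, with a median of -0.31, against -0.004 over all features, and both cytarabine arrays lay below both cytochalasin D arrays in 11 of them, against 29.6% of all features. With the arrays scaled to the same spread, 12 of the 13 stayed negative and the median was -0.25. The test called 2, against 3.91% of all features. RPS3A read -0.46 and -0.59 with cytarabine, against 0.03 and 0.11 with cytochalasin D, a difference of -0.60 (SE 0.09, adjusted p = 0.024). RPS23 read -0.52 on both cytarabine arrays, against 0.04 and 0.00, a difference of -0.54 (SE 0.08, adjusted p = 0.022). Both were near the level of untreated cells with cytochalasin D. RPS4X (-0.45, adjusted p = 0.052) and RPL17 (-0.41, adjusted p = 0.067) did not pass the threshold. Without cytarabine array 2 (-0.53 and -0.54) or cytochalasin D array 1 (-0.63 and -0.52) or 2 (-0.56 each) neither RPS3A nor RPS23 was called. Some ribosomal protein genes have near-identical pseudogene copies, and the files do not say whether the probes tell them apart. Genes of translation initiation and control, chosen after their values were seen, divided. EIF3B, a subunit of an initiation factor, was higher with cytarabine by 0.61 (SE 0.10, adjusted p = 0.030), LARP1, which represses translation of ribosomal protein messages, by 0.80 (SE 0.13, adjusted p = 0.027), and EIF3E, another subunit of the same factor, differed by -0.56 (SE 0.09, adjusted p = 0.029). Of these, EIF3B has 2 probes with differences of 0.65 and 0.58. Without cytarabine array 2 the 3 stood at 0.53, 0.93 and -0.53 and were not called, nor were they without either cytochalasin D array (0.72 and 0.51, 0.77 and 0.84, and -0.56 each). EIF3B and LARP1 also lost the call without either cisplatin array (0.61 and 0.80), and LARP1 and EIF3E without cytarabine array 1 (0.67 and -0.59).

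Among chaperones, 1 of 16 was called, against 3.91% of all features. HSPA8, the constitutive cytosolic HSP70, read -0.43 and -0.74 with cytarabine, against 0.37 and 0.38 with cytochalasin D, a difference of -0.96 (SE 0.12, 1.94-fold lower, adjusted p = 0.016). Negative differences were found in 11 of the 16 chaperones, against 3346 of all 6604 features. The median of the chaperones was -0.20. With the arrays scaled, 10 of the 16 were negative and the median was -0.10. HSPA6, an inducible HSP70, read -0.05 and 0.02 against 0.32 and 0.56 (-0.46, adjusted p = 0.053), and DNAJA1, a partner of HSP70, -0.02 and 0.06 against 0.55 and 0.33 (-0.42, adjusted p = 0.074), and neither was called. HSP90B1, the HSP90 of the endoplasmic reticulum, was below untreated cells with both drugs, at -0.67 and -0.81 against -0.20 on both cytochalasin D arrays, a difference of -0.54 (SE 0.09, adjusted p = 0.027). The calls of HSPA8 and HSP90B1 ended without cytarabine array 2 (-0.81 and -0.47) or either cytochalasin D array (-0.96 each for HSPA8, -0.53 and -0.54 for HSP90B1).

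HSP90B1 belonged to a list of 24 amino acid and unfolded protein response genes, where 3 genes were higher with cytarabine and it was the 1 lower, around a median of 0.08. Over all features, 1.56% were called higher and 2.35% lower. CEBPB, a transcription factor of stress responses, read 0.59 and 0.41 with cytarabine, against -0.08 and -0.32 with cytochalasin D, a difference of 0.70 (SE 0.11, adjusted p = 0.028). SARS1, the cytosolic seryl-tRNA synthetase, read 0.43 and 0.45 against -0.03 and -0.08, a difference of 0.50 (SE 0.08, adjusted p = 0.024). PYCR1, the last enzyme of proline synthesis, read 0.35 and 0.41 against -0.06 and -0.10, a difference of 0.46 (SE 0.09, adjusted p = 0.045), and was chosen after its value was seen. STC2, a secreted glycoprotein that this stress response is known to induce, was outside the list, was likewise chosen after its value was seen, and read -0.05 and 0.22 against -0.73 and -0.70, a difference of 0.80 (SE 0.12, adjusted p = 0.023). The 3 list members were above untreated cells with cytarabine, and STC2 was below them with cytochalasin D. Without cytarabine array 2 the differences of CEBPB, SARS1, PYCR1 and STC2 were 0.79, 0.49, 0.43 and 0.66, without cytochalasin D array 1 they were 0.82, 0.52, 0.48 and 0.78, without cytochalasin D array 2 they were 0.58, 0.47, 0.44 and 0.82, and none was called. The first 3 also lost the call without cytarabine array 1 (0.61, 0.51 and 0.49), and CEBPB and PYCR1 without either cisplatin array (0.70 and 0.46).

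**Figure D3:**
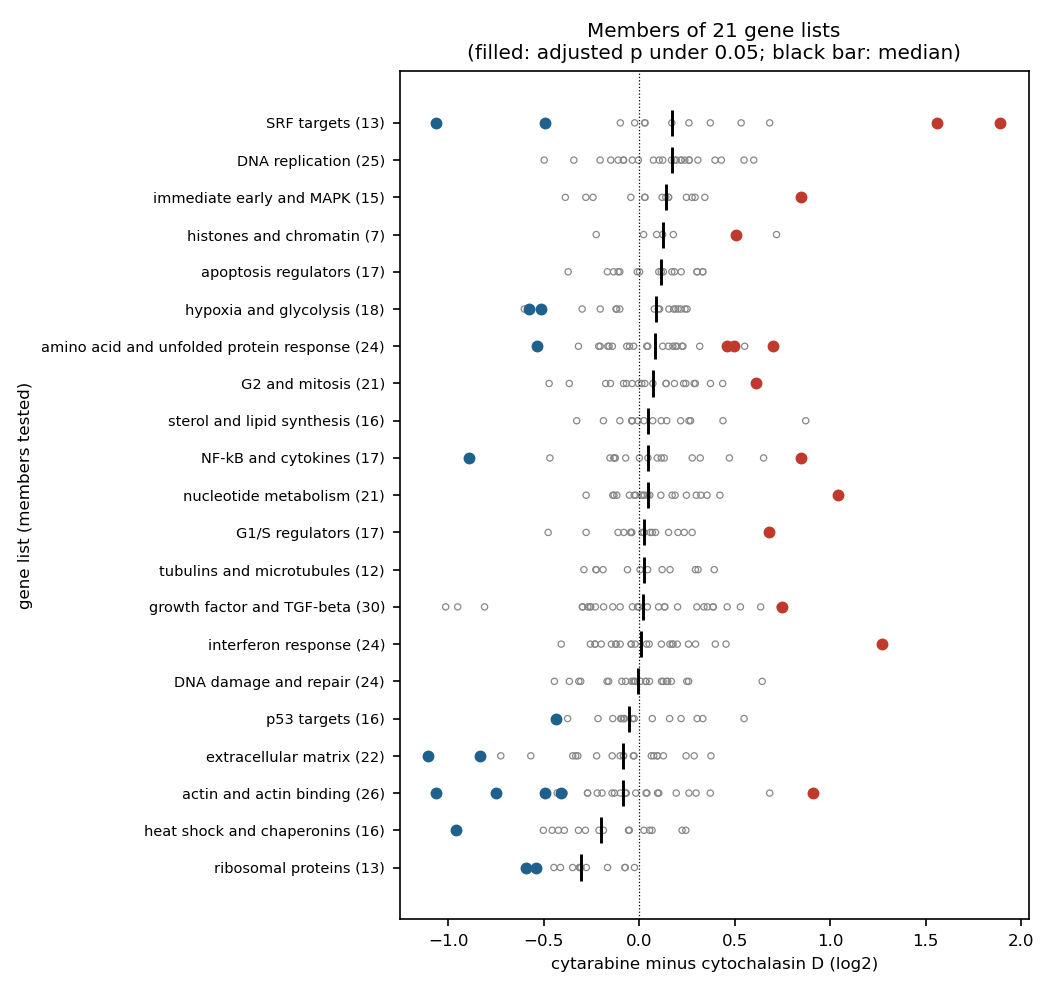
Difference between cytarabine and cytochalasin D (log2, horizontal axis) of every tested member of 21 gene lists, ordered by the list's median, which is the black bar. Filled points had an adjusted p under 0.05, red where higher and blue where lower with cytarabine; the ribosomal protein list lies at the bottom with all 13 members below 0.

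TNFAIP3 and IER3, both known NF-kB targets, differed between the drugs in opposite directions. TNFAIP3, the ubiquitin-editing inhibitor of NF-kB known as A20, read -0.33 and -0.36 with cytarabine, against 0.58 and 0.51 with cytochalasin D, a difference of -0.89 (SE 0.11, 1.85-fold lower, adjusted p = 0.016). IER3, an immediate early gene of stress survival, read 0.24 and 0.23 with cytarabine, against -0.71 and -0.52 with cytochalasin D, a difference of 0.85 (SE 0.10, 1.80-fold, adjusted p = 0.016). They were the only calls among 17 NF-kB targets and cytokines (median 0.05, or -0.01 with the arrays scaled). IER3 was also the only call among 15 immediate early and MAP kinase genes (median 0.14). Over all features, 3.91% were called. SOCS3, the inhibitor of cytokine receptor signalling, read 0.35 and 0.40 against -0.19 and -0.27 (0.61, SE 0.09, adjusted p = 0.021) and was chosen after its value was seen. Without cytarabine array 2 the differences of TNFAIP3, IER3 and SOCS3 were -0.87, 0.85 and 0.58, without cytochalasin D array 1 they were -0.85, 0.75 and 0.64, without cytochalasin D array 2 they were -0.93, 0.95 and 0.57, and none was called.

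In signalling, 2 kinases chosen after their values were seen also divided. MAP2K2, the kinase MEK2 above ERK, read 0.69 and 0.77 with cytarabine, against 0.00 and -0.27 with cytochalasin D, a difference of 0.87 (SE 0.13, adjusted p = 0.024). PRKACA, the catalytic subunit of protein kinase A, read -0.37 and -0.16 against 0.70 and 0.62, a difference of -0.93 (SE 0.18, adjusted p = 0.040). The call of MAP2K2 ended without cytarabine array 2 (0.83) or cytochalasin D array 1 (1.00) or 2 (0.73). PRKACA kept its call only without a paclitaxel array (-1.03 to -0.82 otherwise).

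Genes of matrix held 2 calls of 22 and genes of growth factor signalling 1 of 30, against 3.91% of all features. MMP1, interstitial collagenase, read -0.16 and 0.13 with cytarabine, against 1.20 and 0.99 with cytochalasin D. It was near untreated cells with cytarabine and well above them with cytochalasin D, and the difference was -1.11 (SE 0.13, 2.15-fold lower with cytarabine, adjusted p = 0.016). Against the mean of cisplatin and paclitaxel, cytarabine was at -0.18 (adjusted p = 0.33), and cytochalasin D was higher by 0.93 (adjusted p = 0.012). ADAM12, a membrane metalloprotease, was low with both drugs, at -2.62 and -2.73 against -1.75 and -1.94, a difference of -0.84 (SE 0.13, adjusted p = 0.024) that shrank to -0.16 and was not called with the arrays scaled. They were the 2 calls among 22 matrix genes, whose median was -0.08. An unadjusted p under 0.05 was found for 8 of these 22 and for 14 of the 30 growth factor genes, against 24.8% of all features. VEGFB, a vascular growth factor, read 0.97 and 0.55 against -0.08 and 0.10 (0.75, SE 0.16, adjusted p = 0.050) and was the 1 call among 30 growth factor and TGF-beta genes, whose median was 0.02. FGFR2, a fibroblast growth factor receptor, read -1.13 and -1.10 against 0.13 and -0.33 and missed the threshold (-1.01, SE 0.24, adjusted p = 0.061). The calls of MMP1 and ADAM12 ended without cytarabine array 2 (-1.25 and -0.78), cytochalasin D array 1 (-1.0 and -0.74) or cytochalasin D array 2 (-1.21 and -0.93), and that of VEGFB without any 1 of the 8 arrays (0.54 to 0.96).

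Hypoxia and glycolysis genes gave 2 calls of 18, against 3.91% of all features, around a median of 0.09. Both were lower with cytarabine, against 2.35% of all features. PGK1, the glycolytic phosphoglycerate kinase, read -0.65 and -0.57 with cytarabine, against -0.18 and -0.01 with cytochalasin D (-0.51, SE 0.09, adjusted p = 0.033). P4HA1, the collagen prolyl hydroxylase subunit, read -0.30 and -0.53 against 0.16 on both cytochalasin D arrays (-0.58, SE 0.10, adjusted p = 0.028). PGK1 lost its call without any 1 of the 8 arrays (-0.60 to -0.43), and P4HA1 without either cisplatin array (-0.58 each), cytarabine array 2 (-0.46) or either cytochalasin D array (-0.58 each).

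The median of 24 interferon response genes was 0.01, or -0.01 with the arrays scaled. The 1 call among them, against 3.91% of all features, was IFI35, an interferon-induced protein. It read 0.23 and -0.06 with cytarabine, against -1.03 and -1.34 with cytochalasin D, a difference of 1.27 (SE 0.14, 2.42-fold, adjusted p = 0.013). As with CCN1 and CCN2, the cytarabine arrays were near untreated cells and the cytochalasin D arrays far below. The call ended without cytarabine array 2 (1.41) or cytochalasin D array 2 (1.12). Cisplatin also read low, at -0.72 and -0.85. No member was called among 12 tubulin and microtubule genes (3 with an unadjusted p under 0.05, median 0.02) or 16 genes of sterol and lipid synthesis (4 with an unadjusted p under 0.05, median 0.05), both shares near the 24.8% of all features. TUBB, the main beta-tubulin, was at 0.04 (SE 0.09, adjusted p = 0.80).

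The other genes of the 12 largest differences in each direction are described singly, and no list was tested as a group. BRAP, a RAS-responsive ubiquitin ligase, read -0.12 and 0.11 with cytarabine, against -1.56 and -1.55 with cytochalasin D, a difference of 1.55 (SE 0.10, 2.93-fold, adjusted p = 0.0013). It kept its call when any 1 of the 8 arrays was left out (1.44 to 1.66), and cisplatin also read low, at -0.94 and -0.95. AKAP8L, a nuclear matrix protein, read 1.37 and 1.24 with cytarabine, against 0.20 and 0.22 with cytochalasin D, a difference of 1.09 (SE 0.15, adjusted p = 0.020). GRIK5, a kainate receptor subunit, read 0.95 and 1.20 against 0.10 and -0.11, a difference of 1.08 (SE 0.13, adjusted p = 0.016). LY96, the partner of the endotoxin receptor TLR4, read 1.18 and 1.01 against 0.15 and -0.04, a difference of 1.04 (SE 0.10, adjusted p = 0.010). These 3 stood well above untreated cells with cytarabine and nearer to them with cytochalasin D. AP3D1, an adaptor subunit of vesicle traffic, PTPA, an activator of a protein phosphatase, and DLST, a mitochondrial dehydrogenase subunit, differed by 1.06, 1.01 and 1.03 (adjusted p = 0.0092, 0.023 and 0.040). The DLST arrays of cytarabine lay far apart, at 1.13 and 0.48. Leaving out cytarabine array 2 ended the calls of AKAP8L (1.16), GRIK5 (0.95), LY96 (1.12), AP3D1 (1.07), PTPA (1.06) and DLST (1.36). Leaving out cytochalasin D array 2 ended the same 6 calls (1.10, 0.98, 0.94, 1.00, 1.00 and 1.12), and leaving out cytochalasin D array 1 ended all but that of LY96 (1.08, 1.18, 1.12, 1.02 and 0.94). PTPA also lost its call without cytarabine array 1 (0.95), and DLST without any cisplatin or paclitaxel array (1.03 each).

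The remaining genes of the lower side were well below untreated cells with cytarabine. RIT2, a neuronal small GTPase, read -1.55 and -1.47 with cytarabine, against 0.19 and -0.27 with cytochalasin D, a difference of -1.47 (SE 0.18, 2.78-fold lower, adjusted p = 0.021). MRNIP, a partner of the DNA break complex MRN, read -1.54 and -1.89 against -0.50 and -0.41, a difference of -1.26 (SE 0.13, adjusted p = 0.0099). RGS13, a regulator of G protein signalling, read -0.80 and -0.86 against 0.24 and 0.21, a difference of -1.06 (SE 0.10, adjusted p = 0.0076). In these 3 genes every cytarabine array was well below both cytochalasin D arrays. GAB2, an adaptor of growth factor receptors, and WBP1L, a membrane protein, differed by -1.05 and -1.21 (adjusted p = 0.042 and 0.028). NDUFV2, a subunit of mitochondrial complex I, read -1.67 and -2.34 against -1.0 and -0.39, a difference of -1.31 (SE 0.26, adjusted p = 0.046). ITPKA, an inositol trisphosphate kinase that also binds actin, read -1.96 and -2.37 against -0.85 and -1.32, a difference of -1.08 (SE 0.19, adjusted p = 0.036). SWT1, an endonuclease of RNA quality control, read -2.46 and -2.49 against -1.42 and -1.56, a difference of -0.99 (SE 0.09, adjusted p = 0.0076). The last 3 were below untreated cells on all 4 arrays, and with the arrays scaled to the same spread their differences were -0.90, -0.57 and -0.39 and were not called. The wider spread of the cytarabine arrays moves with such genes, and its part in the differences was not tested beyond this scaling. Without cytarabine array 2 the calls of all 8 ended, with RIT2 at -1.52, MRNIP at -1.08, RGS13 at -1.03, GAB2 at -0.90, WBP1L at -1.42, NDUFV2 at -0.97, ITPKA at -0.87 and SWT1 at -0.98. Without cytochalasin D array 1 (-1.25, -1.30, -1.04, -1.06, -1.31, -1.61, -0.85 and -0.92) or 2 (-1.70, -1.22, -1.08, -1.04, -1.12, -1.0, -1.32 and -1.05) they ended too. GAB2 and WBP1L also lost them without cytarabine array 1 (-1.20 and -1.0), GAB2 without either cisplatin array (-1.05), and NDUFV2 and ITPKA without any cisplatin or paclitaxel array (-1.31 and -1.08).

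**Figure D4:**
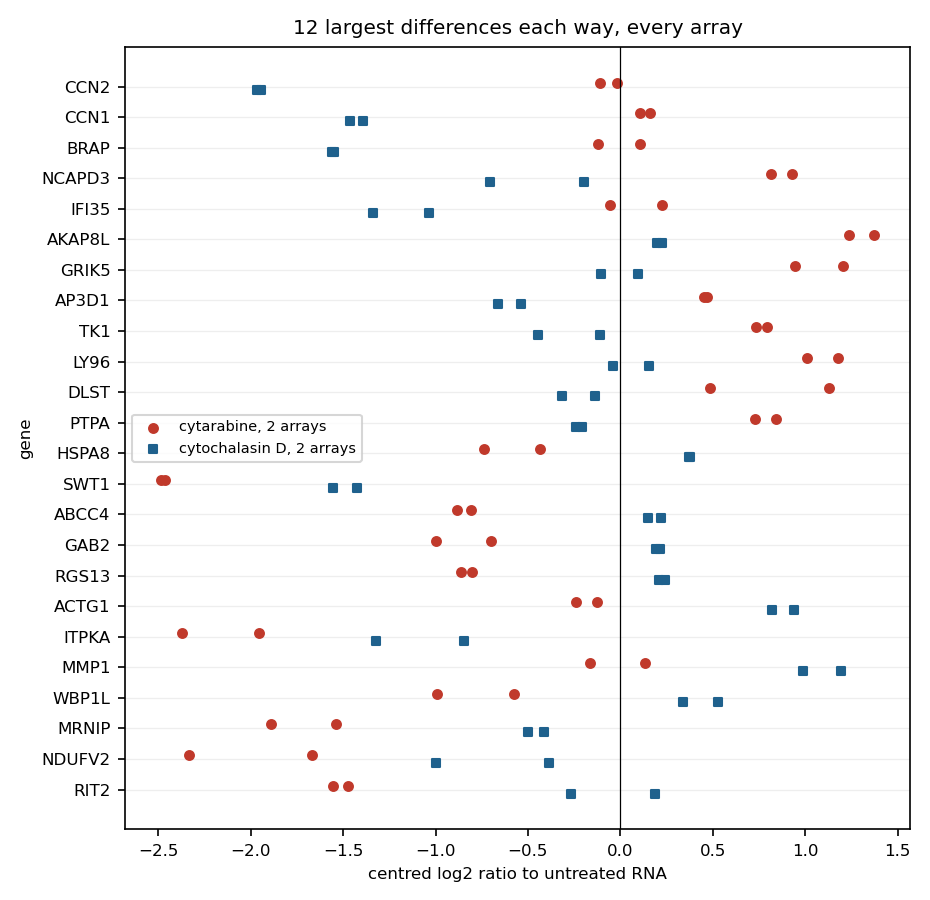
Centred log2 ratio to untreated RNA (horizontal axis) on each array for the 12 genes with the largest called differences in each direction, cytarabine as red circles and cytochalasin D as blue squares. In CCN2, CCN1, BRAP and IFI35 it is the cytochalasin D arrays that lie far from 0, in AKAP8L, GRIK5, LY96, RIT2 and RGS13 the cytarabine arrays, and SWT1 and ITPKA lie below 0 on all 4.

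Ratios to untreated cells of the same line do not give the level of a gene, so the identity of the cells could not be checked from markers, and fewer cells expressing a gene cannot be told apart from less RNA per cell. An unadjusted p under 0.05 was found for 2 of 6 epithelial markers tested, against 24.8% of all features. Only 1 of the 6 was called, against 3.91% of all features. It was KRT7, a keratin of simple epithelia, which read 0.41 and 0.14 with cytarabine, against -0.38 and -0.18 with cytochalasin D (0.56, SE 0.12, adjusted p = 0.048) and lost its call without any 1 of the 8 arrays (0.42 to 0.69). None of 7 blood cell markers was called, and 0 had an unadjusted p under 0.05. Of 9 fibroblast and endothelial markers 1 was called, LUM, a matrix proteoglycan (-0.44, SE 0.09, adjusted p = 0.050), with the call lost without any 1 array (-0.53 to -0.35). An unadjusted p under 0.05 was found for 5 of the 9, whose median was 0.04.

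The calls taken as a whole depended on which arrays entered the fit. With the 4 arrays of the comparison alone, 2 features were called. Most of the reported calls were lost when either cytarabine array or either cytochalasin D array was left out. Without cytarabine array 1 many features were called, but most of them were not among the reported calls. Leaving out a cisplatin array gave 114 and a paclitaxel array 159. CCN1, CCN2 and BRAP were called in each of these 8 fits and ACTG1 in 7 of them. Of the 69 named genes that were called, 24 were still called with the arrays scaled to the same spread, namely CCN2, CCN1, BRAP, IFI35, GRIK5, AP3D1, TK1, LY96, ACTN1, IER3, EXO1, SSRP1, TTL, CDC42EP1, SPTAN1, SOCS3, STC2 and LARP1 on the higher side and MRNIP, MMP1, ACTG1, RGS13, ABCC4 and HSPA8 on the lower. Set against the other drugs, cytarabine gave unlike numbers of calls. Against paclitaxel 2 features were called (0.0303%) and against cisplatin 1567 (23.7%). An unadjusted p under 0.05 in limma was found for 1232 of 6601 features against paclitaxel and for 2668 of 6604 against cisplatin. For cytarabine against cytochalasin D the unadjusted count was 1640 of 6604. The unadjusted counts and the calls ranked the comparisons alike, but the calls lay much further apart. The number of calls is therefore not a scale of how alike the drugs are.

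**Figure D5:**
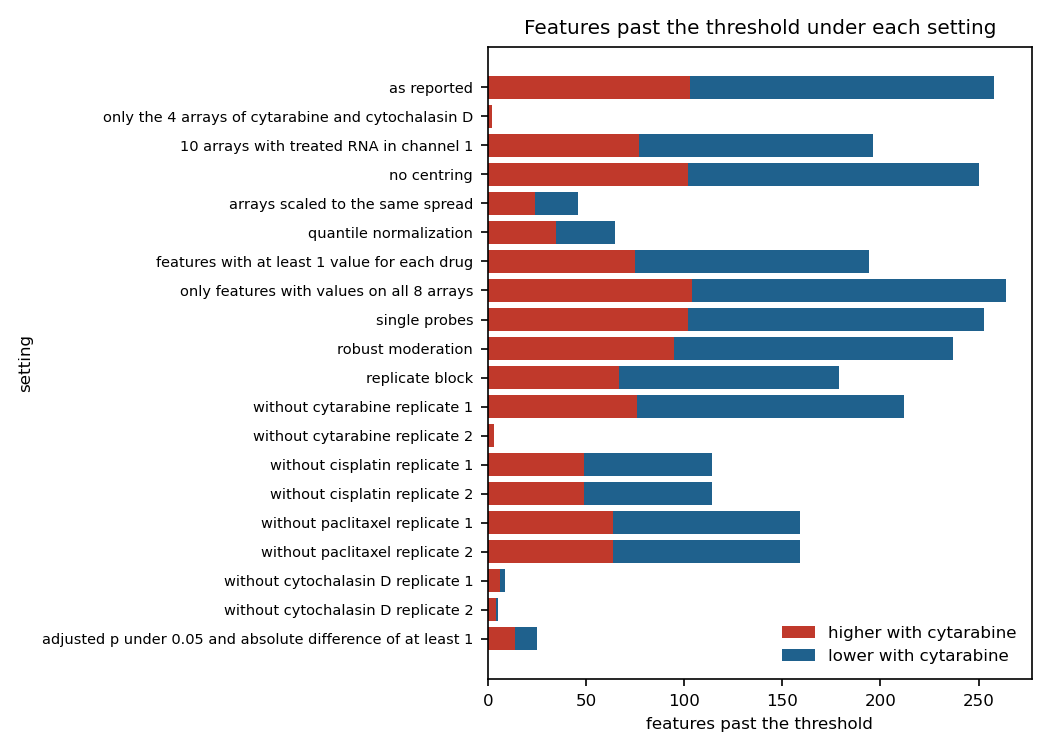
Number of features with an adjusted p under 0.05 (horizontal axis) under each setting of the analysis, split into those higher (red) and lower (blue) with cytarabine. The bars run from 2 with the 4 arrays of the comparison alone to 264 with only features measured on all 8 arrays, and those without cytarabine array 2 or either cytochalasin D array are at 3, 9 and 5.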

How the data were processed

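Each array compared the RNA of treated H460 cells with that of untreated ones. The deposited value table holds 1 log ratio per probe and array, taken here as log2. No label or header states the authors' base, background correction, normalization or flagging. The medians of the 12 arrays were 0.0016 to 0.025 (0.0075 to 0.012 on the 4 compared), so the deposited ratios were already near 0 in the middle. Scanner intensities were not used here, and the number of arrays limits the precision. Of 8170 probes, 5930 had 1 gene symbol in the platform annotation, 79 several and 2161 none.

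Each array was centred on its median. Probes of a gene with values on all 4 arrays were averaged, and a feature was tested only with all 4 values (6906 probes, 6604 features, 4657 of them named). Group means of 8 arrays, 2 for each of 4 drugs, were fitted with limma 3.58.1 (R 4.3.3, lmFit and eBayes), with Benjamini-Hochberg adjustment over all features and a threshold of 0.05. Other settings were the 4 arrays alone, 10 arrays, no centring, scaling to equal spread, quantile normalization, other rules for missing values, single probes, robust moderation, a replicate block, a minimum difference of 1 and leaving out each array. Tables used Python 3.11.15 and pandas 2.3.3. The scripts were tested on simulated data.

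The comparison and the gene lists were chosen with earlier results of these data known, so no list was tested as a set. Named genes are the 12 largest called differences each way, up to 4 members of each list and a fixed set of drug and cytoskeleton genes, and others are marked as chosen after their values were seen. Replicate numbers were not used to pair the arrays in the main fit. Deviations of same-numbered arrays from their group means correlated at -0.054 to 0.091 between drugs, highest for cytarabine with cytochalasin D. Such weak correlations cannot show that the arrays were unpaired, and the labels do not say. The counts of 1 gene list are not reported here.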

Additional observations from a re-analysis of the deposited data

How the results depend on the processing

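The count of 258 features between cytarabine and cytochalasin D was 2 with only the 4 arrays of the comparison, 46 with arrays scaled to the same spread, 65 after quantile normalization (53.8% higher with cytarabine, against 39.9%) and 25 with a minimum difference of 1 (56.0% higher). It was 179 with the replicate number as a block, 67 higher and 112 lower, with 157 of the calls kept. It was 194 to 264 under the other settings. Left out singly, the arrays gave 3 to 212 calls. Leaving out arrays leaves fewer samples to fit, and otherwise the cause was not tested.

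The count for cytarabine against the mean of cisplatin and paclitaxel (961) was 285 scaled, 218 after quantile normalization, 59 with a minimum difference of 1 and 196 to 679 with 1 array left out. For cytochalasin D against that mean (218) it was 330 scaled, 280 after quantile normalization, 17 with the minimum and 12 to 221 with 1 array left out. Cytarabine against cisplatin (1567) gave 1039 scaled, 909 after quantile normalization, 161 with the minimum and 686 to 1471 with 1 array left out. Cytarabine against paclitaxel (2) gave 0 scaled, 1 after quantile normalization, 0 with at least 1 value for each drug, 0 with the replicate block, 1 with the minimum and 0 to 74 with 1 array left out. The 4 arrays alone cannot give these contrasts.

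CCN2 kept its call under every alternative. CCN1 lost it with 10 arrays (adjusted p = 0.080), and BRAP with the 4 arrays alone. Of 69 named genes called, 24 stayed called with arrays scaled. Their direction held throughout except for ITGB3 (0.018 scaled). Among 74 not called, 8 reversed: ATM to 0.11 scaled and 0.11 after quantile normalization, FOSL2 to -0.090 with at least 1 value for each drug, and 6 when 1 array was left out. Their ranges then were -0.44 to 0.13 for CD14, -0.25 to 0.095 for MDM2, -0.23 to 0.18 for SRF, -0.061 to 0.28 for EPCAM, -0.080 to 0.64 for LCP1 and -0.038 to 0.13 for TUBB. Also among the 74, 9 passed the threshold under some alternative: 5 without cytarabine array 1 (among them AARS1, PDK1, EREG and SCD), FEN1 without either cisplatin array, XRCC6 and CCNE1 without either paclitaxel array, and ADAM17 without cytochalasin D array 1, with 10 arrays and with only features on all 8 arrays. EREG also passed with the replicate block. The cause was not tested.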

Other observations

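Missing values were unevenly placed. Of 8170 probes, 137 had a value on both cytochalasin D arrays and on neither cytarabine array, whereas 4 had the opposite pattern and 518 had no value on any of the 4 arrays. The cytarabine arrays lacked 10.66% and 14.46% of their values, against 8.35% and 8.04% on the cytochalasin D arrays. These probes entered no test, and why the values are missing is not given in the sources used here.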
